A study of Nicotiana tabacum with 6 samples.

Results

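The 6 loci described here carry names of growth genes in tobacco (Nicotiana tabacum), and they were followed in mature leaves labelled OE-NtispH or WT. The wall-loosening loci were the expansin genes Nt-EXPA1 (ncbi_107798333) and Nt-EXPA4 (ncbi_107808676) and the endoglucanase gene Cel8 (ncbi_107807143). The replication loci were PCNA-II (ncbi_107778290) and PCNA (ncbi_107779602), both for the protein PCNA, and the ribonucleotide reductase gene RNR1b (ncbi_107807190). Other loci are given by their RefSeq locus names, which hold the same gene numbers. They are 6 of 68476 loci in the table, and all 6 reached the mean level of 0.5 FPKM over the 6 libraries that was set for testing, as did 40725 loci in all. FPKM is the number of sequenced fragments assigned to a gene, scaled to the gene's transcript length and to sequencing depth, so levels of different genes can be compared per length. These loci were picked because their values differed between the groups in an earlier reading of this table, so their differences between groups are given as a description, with no p-value, and nothing is read from how many of them pass a threshold.

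The study grew plants overexpressing NtispH and wild-type plants under the same conditions and sequenced poly(A) RNA from their leaves. There were 3 libraries labelled OE-NtispH and 3 labelled WT, all from mature leaf. NtispH encodes the last enzyme of the plastid pathway to terpenoid precursors. The labels name no promoter, cultivar, plant age or transgenic line. Nor do they tie a library to its own plant, so the p-values reflect variation among 6 libraries that may be technical in part or in whole.

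A leaf grows first by division and then by expansion of its cells, and a mature leaf holds few dividing cells. Expansins are wall proteins that let cellulose and the polysaccharides bound to it slide past each other, and endoglucanases cut beta-1,4-glucan chains of the wall. PCNA is the sliding clamp that holds DNA polymerase on its template, and ribonucleotide reductase makes the deoxyribonucleotides for DNA synthesis. Transcripts of the replication genes are known to be most abundant in S phase.

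Across the table, the locus named ISPH did not follow the labels. Whether other loci also encode this enzyme, or whether transgene fragments are assigned to this locus, was not checked. ISPH (LOC107760258) was at 2761, 684.6 and 853.7 FPKM in the libraries labelled OE-NtispH replicates 1 to 3, against 108.2, 3038 and 558.6 FPKM in those labelled WT, so the groups are named by their labels throughout. Estimated from the commonest ratio of low FPKM values, the other libraries had 1.02 to 1.18 times the depth of WT replicate 1; the number of fragments is unknown. The tissue label was checked on marker genes. All 10 loci for leaf mesophyll proteins were expressed, with sums of 10707 to 13240 FPKM in the libraries labelled OE-NtispH and 15800 to 17769 FPKM in WT. Of 6 homeobox loci listed for shoot meristem and very young leaf, NTH9, NTH15 and NTH22 were at 0 in every library. NTH1 and NTH20 were at most 0.575 FPKM, and NTH23 was at 33.1 to 40.8 FPKM. Whether NTH23 is also expressed outside the meristem was not checked. Of 12 root loci, all 4 PMT loci of the nicotine pathway were at 0 in every library. The 3 tested ones were expressed, with means over 6 libraries of 30.4 FPKM for NtQPT2a, 5.93 for NtQPT1b and 1.01 for TobRB7. Of these 3, 0 passed (limma, adjusted at 0.05), beside 1.81% of all tested loci. Of 3 pollen and flower loci the highest value was 0.054 FPKM, and 0 of 2 glandular trichome loci passed. Among the tested root and trichome loci, 0 had an unadjusted p under 0.05, beside 26.4% of all tested loci. With so few loci, nothing is read from these counts. Of 4 senescence loci, the protease genes SAG12 and CP1 were at 0 in every library, and the other two lay on opposite sides of 0. The glutamate dehydrogenase gene gdh1 (LOC107778990) had 26.8 ± 3.47 FPKM in OE-NtispH and 10.7 ± 1.12 FPKM in WT (SD, n = 3 each; log2 change 1.25; limma, adjusted p = 0.0182), a call lost without any 1 WT library or without OE-NtispH replicate 1 (limma, adjusted p of 0.0566 to 0.119). The cysteine protease gene CP2 (LOC107815477) had 3.60 ± 3.47 FPKM in OE-NtispH and 8.99 ± 4.36 FPKM in WT, with overlap (SD, n = 3 each; log2 change -1.26; limma, adjusted p = 0.252).

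Both expansin genes were lower in all 3 libraries labelled OE-NtispH than in any labelled WT. Nt-EXPA4, the most abundant of the 6 loci, had 25.4, 38.6 and 30.9 FPKM in OE-NtispH replicates 1 to 3, against 52.7, 53.5 and 44.6 FPKM in WT replicates 1 to 3. The lowest WT library stood 6.04 FPKM above the highest OE-NtispH library. Its mean of 31.6 ± 6.62 FPKM in OE-NtispH and 50.3 ± 4.94 FPKM in WT (SD, n = 3 each) gave a ratio of 0.629 and a log2 change of -0.67 (SE 0.16) on the log2(FPKM + 1) scale. By its mean over the 6 libraries, Nt-EXPA4 stood at percentile 94.3 of the tested loci.

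Nt-EXPA1 had 6.70, 11.3 and 6.685 FPKM in OE-NtispH replicates 1 to 3, against 13.5, 16.7 and 18.3 FPKM in WT replicates 1 to 3. OE-NtispH replicates 1 and 3 were almost equal, and replicate 2 stood between them and the WT libraries, without overlap. The means were 8.23 ± 2.66 FPKM in OE-NtispH and 16.1 ± 2.45 FPKM in WT (SD, n = 3 each), a ratio of 0.510 and a log2 change of -0.92 (SE 0.21).

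The 2 other named expansin loci were nearly silent in these leaves. Nt-EXPA3 was at 0 in every OE-NtispH library and at no more than 0.101 FPKM in WT, and EXPA6 was at 0 throughout. Nt-EXPA4 therefore held 77.3% to 82.2% of the FPKM of the 4 named expansin loci in OE-NtispH and 70.9% to 79.7% in WT, ranges that overlap. The summed expansin level was 39.8 ± 9.10 FPKM in OE-NtispH and 66.5 ± 3.68 FPKM in WT (SD, n = 3 each). Expansin loci without a gene name are not covered by these sums.

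Cel8, a low locus at percentile 30.6, had 1.23, 2.12 and 1.35 FPKM in OE-NtispH replicates 1 to 3, against 2.18, 3.25 and 3.80 FPKM in WT replicates 1 to 3. The groups were separated by only 0.061 FPKM, between OE-NtispH replicate 2 and WT replicate 1. Its means were 1.56 ± 0.483 FPKM in OE-NtispH and 3.08 ± 0.828 FPKM in WT (SD, n = 3 each), a ratio of 0.508 and a log2 change of -0.67 (SE 0.21). The other named endoglucanase loci had overlapping groups. Cel3 (LOC107792901), the most abundant of them, had 53.9 ± 17.8 FPKM in OE-NtispH and 47.98 ± 0.499 FPKM in WT, and Cel2 (LOC107774012) had 3.70 ± 1.07 FPKM in OE-NtispH and 3.07 ± 0.934 FPKM in WT (SD, n = 3 each).

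**Figure D1:**
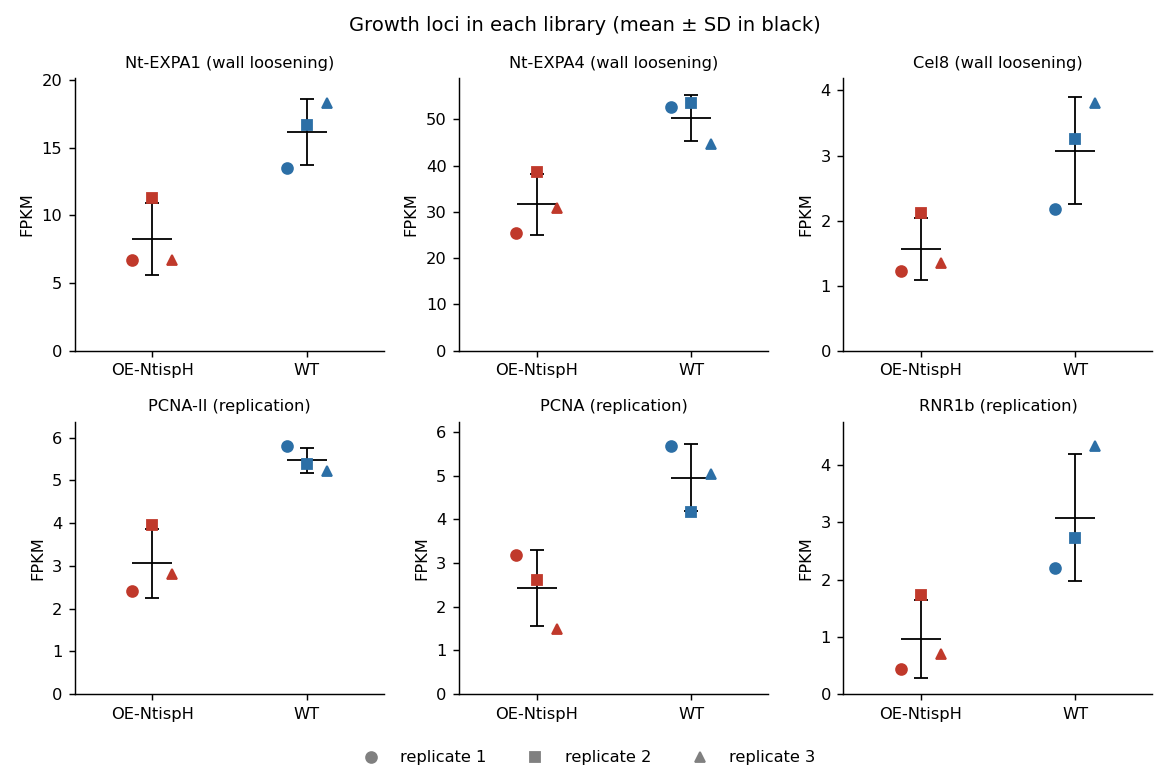
FPKM of the 6 growth loci in each library (vertical axes, linear from 0), with libraries labelled OE-NtispH in red on the left of each panel, those labelled WT in blue on the right, marker shape for the replicate number and mean ± SD in black. No OE-NtispH library reaches a WT library in any panel, and OE-NtispH replicate 2 is the highest of its group in 5 of the 6.

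The replication loci, too, were lower in every OE-NtispH library than in any WT library. PCNA-II had 2.40, 3.95 and 2.82 FPKM in OE-NtispH replicates 1 to 3, against 5.80, 5.37 and 5.23 FPKM in WT replicates 1 to 3. The 3 WT libraries were close together, with the highest 1.11 times the lowest, against 1.64 times in OE-NtispH. The means of 3.06 ± 0.801 FPKM in OE-NtispH and 5.47 ± 0.295 FPKM in WT (SD, n = 3 each) gave a ratio of 0.559 and a log2 change of -0.69 (SE 0.16).

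The PCNA locus ncbi_107779602 had 3.19, 2.60 and 1.49 FPKM in OE-NtispH replicates 1 to 3, against 5.67, 4.16 and 5.04 FPKM in WT replicates 1 to 3. It was the one growth locus whose highest OE-NtispH value stood in replicate 1 and not in replicate 2. The means were 2.43 ± 0.867 FPKM in OE-NtispH and 4.96 ± 0.759 FPKM in WT (SD, n = 3 each), a ratio of 0.489 and a log2 change of -0.82 (SE 0.21).

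Tobacco is an allotetraploid, and fragments from near-identical gene copies can be assigned to either, so the level of each PCNA locus alone is uncertain. Within a library, PCNA-II was 0.753 to 1.90 times PCNA in OE-NtispH and 1.02 to 1.29 times in WT. Summed over both loci, PCNA was at 5.59, 6.55 and 4.31 FPKM in OE-NtispH replicates 1 to 3, against 11.5, 9.53 and 10.3 FPKM in WT replicates 1 to 3. The sum depends less on how fragments were divided between the pair, and its groups were also apart, with means of 5.48 ± 1.13 FPKM in OE-NtispH and 10.4 ± 0.977 FPKM in WT (SD, n = 3 each), a ratio of 0.526.

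RNR1b had the lowest level of the 6 loci, at percentile 27.0. It had 0.442, 1.73 and 0.702 FPKM in OE-NtispH replicates 1 to 3, against 2.20, 2.72 and 4.33 FPKM in WT replicates 1 to 3. Both groups were widely spread, the highest library being 3.92 times the lowest in OE-NtispH and 1.97 times in WT, and the gap between the groups was 0.462 FPKM. The means were 0.959 ± 0.683 FPKM in OE-NtispH and 3.08 ± 1.11 FPKM in WT (SD, n = 3 each), a ratio of 0.311. Its log2 change was -1.08 (SE 0.28), and with a pseudocount of 0.1 in place of 1 it was -1.72, because the log2(FPKM + 1) scale understates changes at this level.

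By mean level over the 6 libraries the order was Nt-EXPA4 at 40.95, Nt-EXPA1 at 12.2, PCNA-II at 4.26, PCNA at 3.69, Cel8 at 2.32 and RNR1b at 2.02 FPKM. Nt-EXPA4 was above Nt-EXPA1 in every library, by 3.41 to 4.62 times in OE-NtispH and by 2.44 to 3.92 times in WT. The neighbours PCNA-II and PCNA, and Cel8 and RNR1b, did not differ beyond their spread, since their order changed between libraries. Differences were read against the table as a whole. All 6 loci were lower in OE-NtispH without overlap, as were 8.59% of the tested loci, and their median log2 change was -0.76 beside a median of 0.13 over all tested loci. This separation is what the loci were picked for, and nothing is read from it.

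The following counts describe the fit over all loci and are no test of the 6 loci, which were picked on the same values. By limma with Benjamini-Hochberg adjustment over all tested loci, 0 of the 6 passed at 0.05, where 1.81% of all loci did, and 6 had an unadjusted p under 0.05, as 26.4% of all loci did. By limma without a trend and robust fit 0 of 6 passed, where 0.13% of all loci did, and with testing limited to loci with a mean of 2 FPKM or more Nt-EXPA1 passed, where 4.6% did. Without OE-NtispH replicate 2, Nt-EXPA1, Nt-EXPA4, PCNA-II and RNR1b passed, and the share over all loci rose as well, to 3.33%.

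Within the groups the 6 loci did not share 1 order of libraries. In OE-NtispH, replicate 2 was the highest for 5 of the 6 loci, and replicate 1 was the lowest for 4 and replicate 3 for 2. Among the WT libraries, replicate 1 had the lowest values of Nt-EXPA1, Cel8 and RNR1b but the highest of both PCNA loci, and replicate 3 had the highest values of Nt-EXPA1, Cel8 and RNR1b. Set against ISPH, the OE-NtispH libraries stood in the reverse order for 4 of the 6 loci (Nt-EXPA4, Cel8, PCNA-II and RNR1b), and the WT libraries for 1 of 6 (PCNA). With 3 libraries in a group these orders are given as a description. WT replicate 2, with the highest ISPH of all libraries, had all 6 loci above every OE-NtispH library. That follows from the separation of the groups for which the loci were picked, so nothing is read from it about ISPH. Without WT replicate 2 the log2 changes were -0.89 for Nt-EXPA1, -0.62 for Nt-EXPA4, -0.63 for Cel8, -0.70 for PCNA-II, -0.92 for PCNA and -1.13 for RNR1b.

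Wall-loosening and replication loci were set side by side as the mean over 3 loci each of the log2 ratio to the WT mean. The wall-loosening loci stood at -1.19, -0.48 and -1.06 in OE-NtispH replicates 1 to 3, against -0.23, 0.07 and 0.10 in WT replicates 1 to 3. The replication loci stood at -1.54, -0.74 and -1.61 in OE-NtispH replicates 1 to 3, against -0.07, -0.15 and 0.15 in WT replicates 1 to 3. Both sets were below WT in every OE-NtispH library, and replicate 2 was the least so for both.

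The replication loci lay further below WT than the wall-loosening loci, by 0.39 ± 0.15 in OE-NtispH, against 0.01 ± 0.20 in WT (SD, n = 3 each). That gap came with RNR1b. With both PCNA loci alone the difference was 0.08 ± 0.31 in OE-NtispH and -0.01 ± 0.31 in WT, and with a pseudocount of 1 added to all 6 loci it was 0.12 ± 0.12 in OE-NtispH and 0.00 ± 0.17 in WT (SD, n = 3 each). In both of these versions the groups overlapped. As first defined they did not, with 0.264 to 0.553 in OE-NtispH and -0.16 to 0.224 in WT. A difference in size between wall loosening and replication therefore depended on RNR1b and on the scale, and it was not tested.

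**Figure D2:**
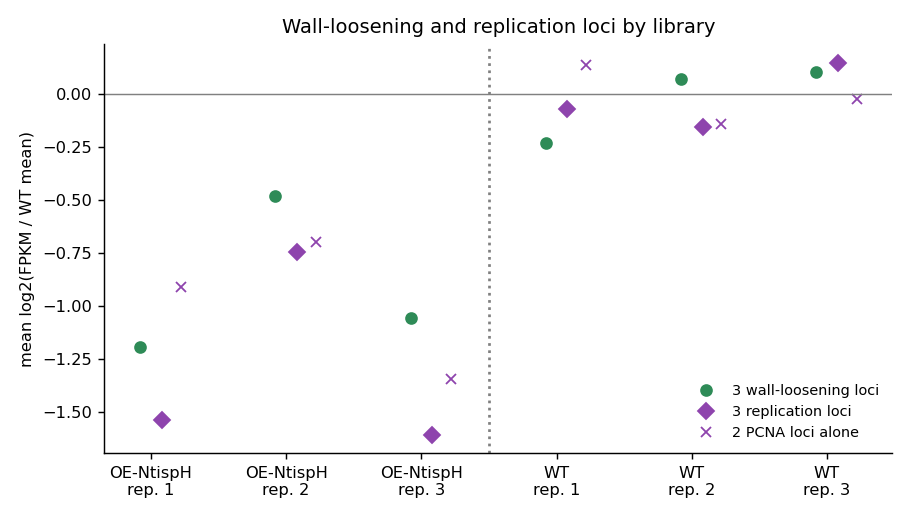
Mean log2 ratio of FPKM to the WT mean (vertical axis) in each library, for the 3 wall-loosening loci (green circles), the 3 replication loci (purple diamonds) and both PCNA loci alone (crosses). All OE-NtispH values lie between -1.61 and -0.48, below the WT values, and the crosses lie closer to the circles than the diamonds do in all 3 OE-NtispH libraries.

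Other named loci of the cell wall lay on both sides of 0. Of 17 such loci, 12 were tested, and 0 passed limma (adjusted at 0.05), with 3 at an unadjusted p under 0.05, beside 26.4% of all tested loci, and 0 passing by limma without trend. Of the 12, 6 had a log2 change below 0, with a median of -0.13, beside 33.7% below 0 and a median of 0.13 over all tested loci. Under quantile normalization 7 of the 12 were below 0, beside 19022 of all 40725 tested loci. Under median-of-ratios scaling 8 were, beside 19658 of the 40725. Groups that did not overlap were seen in 3 of the 12, with 2 lower and 1 higher in OE-NtispH, beside 8.59% lower and 23.9% higher over all tested loci. The list was drawn up with earlier results of these data known.

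Enzymes that cut and rejoin xyloglucan, the main polysaccharide tethered to cellulose in these walls, were the most abundant wall group. XTH7 (LOC107819631) had 1794 ± 734.6 FPKM in OE-NtispH and 2104 ± 119.0 FPKM in WT (SD, n = 3 each; limma, adjusted p = 0.475). It stood at 1362, 1379 and 2642 FPKM in OE-NtispH replicates 1 to 3, so replicate 3 was above and the other two below the WT range of 2005 to 2236 FPKM. Without OE-NtispH replicate 3 it was the 1 wall locus of the 12 to pass, where 7.62% of all loci did (limma, adjusted p = 0.0431; log2 change of -0.62, against -0.30 with all libraries), and under quantile normalization its log2 change was 0.06.

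The related XTH locus LOC107785465 had 177.2 ± 25.9 FPKM in OE-NtispH and 219.4 ± 11.9 FPKM in WT (SD, n = 3 each; limma, adjusted p = 0.205), and its groups did not overlap. EXGT-N2 (LOC107768220) had 49.1 ± 13.6 FPKM in OE-NtispH and 60.35 ± 8.55 FPKM in WT (SD, n = 3 each; limma, adjusted p = 0.359). The cellulose synthase gene CesA1 (LOC107832318) had 27.5 ± 12.4 FPKM in OE-NtispH and 34.4 ± 5.25 FPKM in WT (SD, n = 3 each; limma, adjusted p = 0.423).

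Arabinogalactan protein genes, for heavily glycosylated proteins of the wall and plasma membrane, lay on both sides of 0 without passing. AGP (LOC107798981) had 168.6 ± 10.1 FPKM in OE-NtispH and 212.2 ± 7.86 FPKM in WT (limma, adjusted p = 0.131; SD, n = 3 each). AGP2 (LOC107772822) had 21.6 ± 2.99 FPKM in OE-NtispH and 14.6 ± 1.57 FPKM in WT (limma, adjusted p = 0.0715; SD, n = 3 each), and both had groups that did not overlap. AGP1 (LOC107808597) had 9.39 ± 2.34 FPKM in OE-NtispH and 7.88 ± 1.63 FPKM in WT (limma, adjusted p = 0.507; SD, n = 3 each). The extensin locus LOC107771653, for a structural wall glycoprotein, was chosen after its values were seen, as the 1 other wall locus with a log2 change in the range of the growth loci, at -0.80 (limma, adjusted p = 0.121). It had 0.308, 0.673 and 0 FPKM in OE-NtispH replicates 1 to 3, against 0.640, 2.04 and 1.29 FPKM in WT replicates 1 to 3, with overlap.

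**Figure D3:**
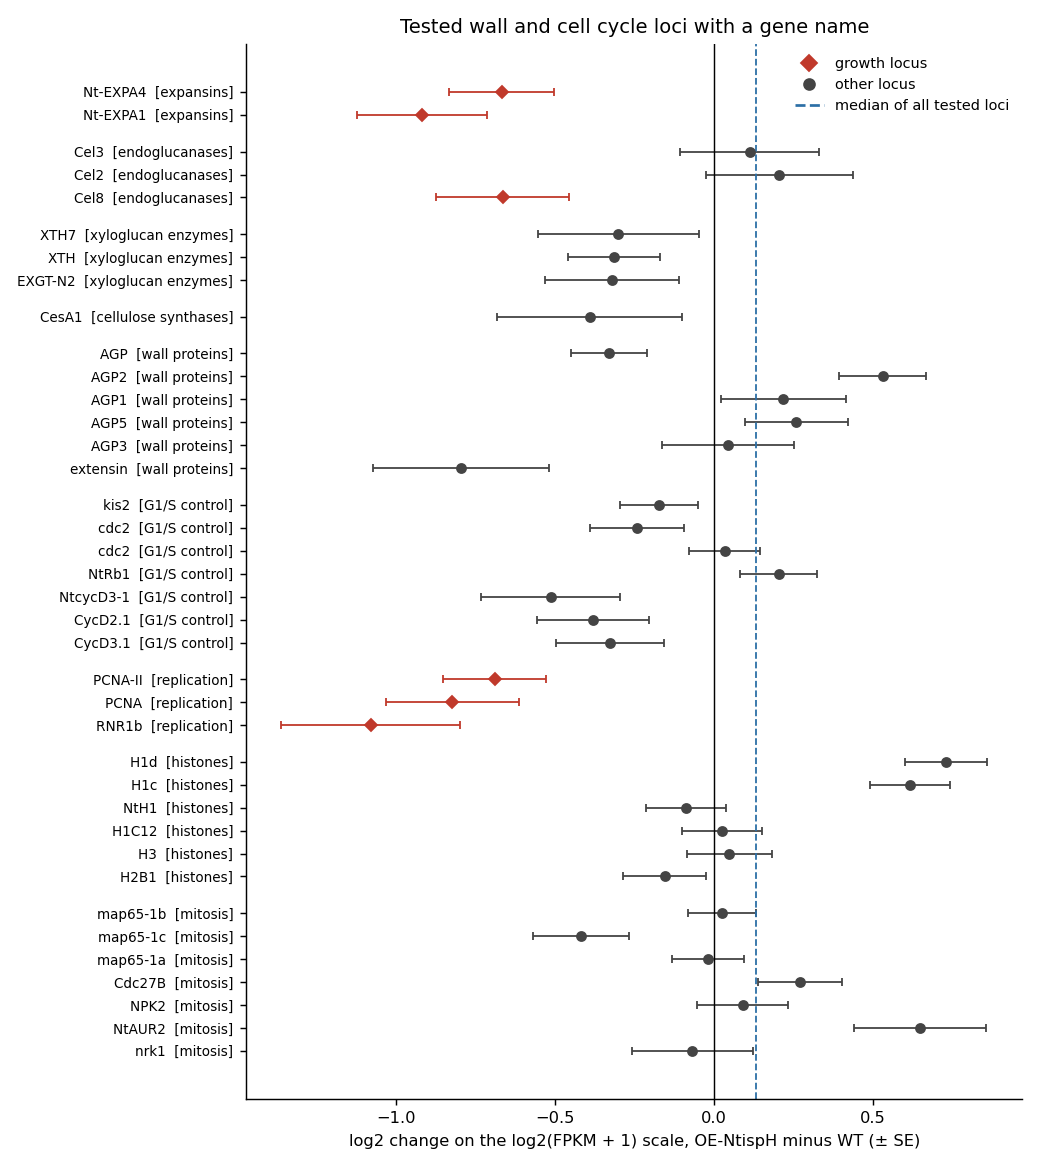
Log2 change of every tested wall and cell cycle locus with a gene name (horizontal axis, OE-NtispH minus WT on the log2(FPKM + 1) scale, bars are the standard error of the fit), grouped by role, with the 6 growth loci as red diamonds. The growth loci lie between -1.08 and -0.67, H1d at 0.73 is the highest, and the dashed line marks the median of all tested loci at 0.13.

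Other named cell cycle loci were split in direction. Of 33 such loci 20 were tested; 1 passed limma (adjusted at 0.05), higher in OE-NtispH as were 1.24% of all tested loci, and 5 had an unadjusted p under 0.05, beside 26.4% of all tested loci. Of the 20, 10 had a log2 change below 0, with a median of 0.00, beside 33.7% and a median of 0.13 over all tested loci. With median-of-ratios scaling and with quantile normalization 15 were below 0, beside 19658 and 19022 of all 40725 tested loci in this order. Groups that did not overlap were seen in 3 lower and 4 higher loci, beside 8.59% lower and 23.9% higher over all tested loci. No other locus of the table carried a replication gene name of the list, so the 3 replication loci had no named neighbours in their own class.

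The 1 locus that passed encodes a linker histone, a protein that binds DNA between nucleosomes. H1d (LOC107832044) had 391.9, 347.5 and 322.2 FPKM in OE-NtispH replicates 1 to 3, against 219.4, 207.3 and 210.2 FPKM in WT replicates 1 to 3. It rose by 0.73 on the log2 scale (SE 0.13), with an adjusted p of 0.0406 by limma. The call was lost without any 1 WT library or without OE-NtispH replicate 1 at log2 changes of 0.66 to 0.75 (limma, adjusted p of 0.0868 to 0.184), and with median-of-ratios scaling, quantile normalization, limma without trend or no filter at log2 changes of 0.57 to 0.73 (limma, adjusted p of 0.0602 to 0.0679).

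The linker histone locus H1c (LOC107808821) had 329.0 ± 13.6 FPKM in OE-NtispH and 214.7 ± 17.5 FPKM in WT (SD, n = 3 each; limma, adjusted p = 0.0514). NtH1 (LOC107830754), with 223.4 ± 4.16 FPKM in OE-NtispH and 238.2 ± 21.3 FPKM in WT (SD, n = 3 each; limma, adjusted p = 0.68), and the core histone loci H3 (LOC107795199), with 134.3 ± 12.4 FPKM in OE-NtispH and 129.9 ± 11.5 FPKM in WT, and H2B1 (LOC107802329), with 30.2 ± 3.41 FPKM in OE-NtispH and 33.7 ± 3.49 FPKM in WT, had overlapping groups; H3 and H2B1 were chosen after their values were seen.

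Of 9 loci for entry into S phase, 7 were tested. Among these, 0 passed limma, beside 1.81% of all tested loci, and 1 had an unadjusted p under 0.05, beside 26.4%. By limma without trend 0 passed too, beside 0.13%. With 7 loci, nothing is read from these counts. The 3 D cyclin loci, partners of the kinase that starts the cycle, were chosen after their values were seen. CycD2.1 (LOC107791950) had 0.744, 0.955 and 0.646 FPKM in OE-NtispH replicates 1 to 3, against 1.03, 1.71 and 1.25 FPKM in WT replicates 1 to 3. CycD3.1 (LOC107792202) had 0.720, 0.786 and 0.901 FPKM in OE-NtispH replicates 1 to 3, against 1.06, 1.67 and 1.09 FPKM in WT replicates 1 to 3. The groups of both were apart by small amounts of FPKM, lower in OE-NtispH as were 8.59% of all tested loci. Their ratios were 0.588 and 0.629, and neither passed (limma, adjusted p of 0.21 and 0.257 in this order). The log2(FPKM + 1) scale understates changes at this level too.

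NtcycD3-1 (LOC107776168) had 2.62, 4.34 and 5.05 FPKM in OE-NtispH replicates 1 to 3, against 4.67, 6.50 and 7.03 FPKM in WT replicates 1 to 3, with overlap (limma, adjusted p = 0.18). The retinoblastoma gene NtRb1 (LOC107777437), whose product restrains S-phase genes, was also chosen after its values were seen and had 9.25 ± 0.946 FPKM in OE-NtispH and 7.89 ± 0.489 FPKM in WT (SD, n = 3 each; limma, adjusted p = 0.318). The cdc2 loci, for the cyclin-dependent kinase itself, had 8.30 ± 1.43 FPKM in OE-NtispH and 9.94 ± 1.08 FPKM in WT (LOC107785170), and 9.18 ± 0.763 FPKM in OE-NtispH and 8.94 ± 0.218 FPKM in WT (LOC107799146; SD, n = 3 each). For the CDK inhibitor gene kis2 (LOC107800762) the values were 8.95 ± 0.927 FPKM in OE-NtispH and 10.2 ± 0.768 FPKM in WT (SD, n = 3 each; limma, adjusted p = 0.392).

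Mitotic genes were mostly below the level needed for the test: 11 of 18 loci had a mean under 0.5 FPKM. Their summed level was 1.71, 1.95 and 1.45 FPKM in OE-NtispH replicates 1 to 3, against 2.94, 3.81 and 5.00 FPKM in WT replicates 1 to 3. The groups of this sum did not overlap, and it was not tested. Summed over all 18 mitotic loci, the level was 48.6 ± 4.17 FPKM in OE-NtispH and 52.2 ± 1.95 FPKM in WT, with overlap (SD, n = 3 each). Among the 11 loci under 0.5 FPKM, singled out after their values were seen, CdkB1-1 (LOC107807664), a kinase made around mitosis, had 0.098, 0.049 and 0.047 FPKM in OE-NtispH replicates 1 to 3, against 0.301, 0.491 and 0.639 FPKM in WT replicates 1 to 3. The kinesin gene TKRP125 (LOC107774014), which acts on the microtubules of the dividing cell, had 0.052, 0.224 and 0.117 FPKM in OE-NtispH replicates 1 to 3, against 0.319, 0.632 and 0.874 FPKM in WT replicates 1 to 3. At such levels a value can rest on few fragments, whose number FPKM does not give.

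Microtubule-bundling proteins of the map65-1 family, which also act outside mitosis, were the most abundant loci of the mitotic class. The locus map65-1b (LOC107787406) had 18.4 ± 1.34 FPKM in OE-NtispH and 18.05 ± 0.334 FPKM in WT (limma, adjusted p = 0.896; SD, n = 3 each). The locus map65-1c (LOC107831251) had 10.1 ± 1.91 FPKM in OE-NtispH and 13.7 ± 1.32 FPKM in WT (limma, adjusted p = 0.129; SD, n = 3 each), without overlap. The locus map65-1a (LOC107761525) had 8.76 ± 0.685 FPKM in OE-NtispH and 8.88 ± 0.389 FPKM in WT (limma, adjusted p = 0.932; SD, n = 3 each). NtAUR2 (LOC107775105), an Aurora kinase gene singled out after its values were seen, ran the other way, with 1.40, 2.16 and 1.37 FPKM in OE-NtispH replicates 1 to 3, against 0.353, 0.708 and 1.03 FPKM in WT replicates 1 to 3 (limma, adjusted p = 0.105).

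Mesophyll markers lay lower together with the growth loci. All 10 marker loci were lower on average in OE-NtispH (9 of 10 under quantile normalization), with a median log2 change of -0.58. The marker list was drawn up with earlier results of these data known, so its counts are given as a description and nothing is read from them. Of the 10, 9 were lower without overlap, beside 8.59% of all tested loci, and 2 passed limma as lower, beside 0.567%. These were GAPB and Lhcb6 (limma, adjusted p of 0.0363 and 0.0486 in this order), and both calls were lost without any 1 WT library or without OE-NtispH replicate 1 (limma, adjusted p of 0.0812 to 0.191), with no filter and with limma without trend (limma, adjusted p of 0.0594 to 0.0779). The Lhcb6 call was also lost with median-of-ratios scaling and quantile normalization (limma, adjusted p of 0.0545 and 0.0795 in this order). Their summed level was lowest in OE-NtispH replicate 1 and highest of its group in replicate 2, at 10707, 13240 and 12178 FPKM in OE-NtispH replicates 1 to 3. The 100 most abundant loci held 23.4% to 26.5% of FPKM in OE-NtispH and 30.6% to 32.2% in WT. The part of these shifts in the levels of the growth loci was not tested. In bulk leaf RNA, fewer growing cells and less transcript per cell cannot be told apart.

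The named loci whose pattern over the 6 libraries was most like that of the growth loci were ranked by correlation. Among 901 named loci that averaged 1 FPKM or more, those with the highest Pearson correlation to the mean standardized profile of the 3 wall-loosening loci were RBCMT (LOC107778201; r of 0.997), a methyltransferase gene of rubisco, agpL3 (LOC107806492; 0.993), for a large subunit of the starch enzyme ADP-glucose pyrophosphorylase, and PsbO (LOC107766588; 0.992), for a protein of photosystem II. RBCMT had 6.13, 8.34 and 6.55 FPKM in OE-NtispH replicates 1 to 3, against 10.1, 11.2 and 11.4 FPKM in WT replicates 1 to 3. To the 3 replication loci the nearest were the plastid ribosomal protein gene CL24 (LOC107762137; r of 0.995), the lycopene cyclase gene LYCe (LOC107789691; 0.981) and the glutamine synthetase gene Gln1-5 (LOC107825623; 0.977). Gln1-5 had 8.47, 17.6 and 6.69 FPKM in OE-NtispH replicates 1 to 3, against 23.6, 25.3 and 30.8 FPKM in WT replicates 1 to 3. In all, 39 loci had an r above 0.95 with the wall-loosening profile and 18 with the replication profile. These are descriptions over 6 libraries in which the group difference itself makes up much of the pattern.

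**Figure D4:**
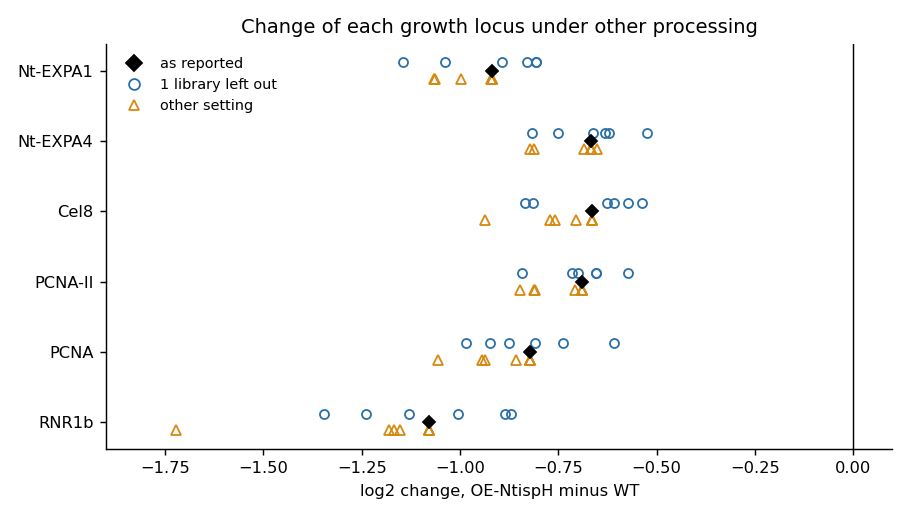
Log2 change of each growth locus (horizontal axis, OE-NtispH minus WT) as reported (black diamonds), with 1 library left out (blue circles) and under the other settings (orange triangles). Every value lies below 0, and the widest range is that of RNR1b, between -1.72 and -0.87. With 1 library left out, values below 0 follow from the choice of loci, whose groups do not overlap.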

How the data were processed

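The authors deposited 1 table of FPKM values for 6 poly(A) RNA-seq libraries. The submitters' processing notes name RSEM, StringTie, HISAT2, Bowtie2 and fastp without versions or roles; genome build and annotation: not given in the sources used here. The labels' protocols describe Trizol extraction, oligo(dT) capture and random-hexamer priming, with a strand-specific variant. Groups and replicate numbers came from the titles. Of 61780 gene numbers, 49268 matched the RefSeq gene table of assembly ASM71507v2, which gave names only, and 1335 carried one. Gene groups therefore cover only loci with a name.

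The 40725 loci whose mean reached 0.5 FPKM were fitted on the log2(FPKM + 1) scale with limma 3.58.1 in R 4.3.3 (intensity trend, robust, two-sided, Benjamini-Hochberg over all tested loci), without a replicate term; standard errors are those of this fit. The fit was tested on simulated data. Tables were made with pandas 2.3.3 and numpy 2.4.6 in Python 3.11.15, and figures with matplotlib 3.10.9. A search for loci with related proteins was planned and not run, as protein sequences were not used here.

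The members, gene lists and markers were chosen with earlier results of these data known. Names were matched with regard to case, which departs from the plan, since the histone NtH1 and the homeobox gene NTH1 differ only in case. Named loci were the 6 members, the 3 of highest mean in each class of the lists, every list locus that passed, and the 3 most like each profile; others are said to be chosen after their values were seen. Depth could only be estimated relative to WT replicate 1, so no counting interval is given. Alternatives were another pseudocount, other filters and scalings, limma without trend, a replicate block and each library left out.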

Additional observations from a re-analysis of the deposited data

How the results depend on the processing

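The log2 change of each growth locus stayed below 0 under all 14 alternatives, between -1.14 and -0.81 for Nt-EXPA1, -0.82 and -0.53 for Nt-EXPA4, -0.94 and -0.54 for Cel8, -0.85 and -0.57 for PCNA-II, -1.06 and -0.61 for PCNA, and -1.72 and -0.87 for RNR1b. With 1 library left out this direction was fixed in advance, since the loci were picked and their groups do not overlap. Other filters, limma without trend and the replicate block leave the log2 change itself as it was. The direction is therefore no support, and only the ranges are described. The number of growth loci past limma's threshold was 0 as reported, 1 (Nt-EXPA1) with a mean of at least 2 FPKM, and 0 to 4 with 1 library left out. Of the other wall loci 0 to 1 passed with 1 library left out. Of the other cell cycle loci 1 passed as reported, 2 with a mean of at least 2 FPKM and after rescaling to TPM, 0 without a filter, with median-of-ratios scaling, with quantile normalization and with limma without trend, and 0 to 2 with 1 library left out. Over all loci 737 passed, of which 68.7% were higher in OE-NtispH. The count was 38 without a filter, 1375 with a mean of at least 2 FPKM, 330 with median-of-ratios scaling (41.2% higher), 594 with quantile normalization (39.6% higher), 53 with limma without trend, and 0 to 3103 with 1 library left out. It was 0 without OE-NtispH replicate 1 and likewise without WT replicate 1, 1 without WT replicate 2, 17 without WT replicate 3, and 1355 and 3103 without OE-NtispH replicates 2 and 3. Why the counts moved was not tested. Same-numbered libraries did not deviate together (correlations of -0.13, 0.04 and -0.16), and with the replicate number as a block 68 loci passed, 0 of the growth loci and 0 of the other cell cycle loci. The block ended the calls of H1d, gdh1, GAPB and Lhcb6 (limma, adjusted p of 0.0732, 0.0518, 0.0553 and 0.0679 in this order). The log2 change of ISPH was 1.04 and turned to -0.15 without WT replicate 1, with a range of -0.15 to 2.25 over the libraries left out. Depth in fragments is unknown and limits the values of RNR1b, Cel8 and the mitotic loci most. The search for related proteins was not run.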
